A study of Mus musculus with 9 samples.

Results

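Chemokines and their receptors were described in adipose stromal cells (ASCs) and muscle fibro-adipogenic progenitors (FAPs) of C57Bl/6 J mice aged 8 to 12 weeks. The genes were those of the deposited table whose symbol is a numbered Ccl, Cxcl or Cx3cl ligand, a numbered Ccr or Cxcr receptor, or the atypical receptor Ackr1, Ackr2 or Ackr4, with 1 ligand and its receptor left out by the rule. That gave 56 of 26214 genes, of which 38 code for ligands, 15 for receptors and 3 for atypical receptors. Every library was of day 1 after an injection into the quadriceps. The study states that replicates of ASCs and FAPs came from cells pooled over 3 animals. Whether each library had a pool of its own is not stated. ASCs came from subcutaneous adipose tissue (ScAT) after NaCl (3 libraries), FAPs from quadriceps after NaCl (2 libraries) and injured FAPs from quadriceps after glycerol (3 libraries), all sorted as CD31−/CD45−/Sca-1+ cells. A library of CD31+CD45+ cells from quadriceps after glycerol had no replicate and entered no test. Reads per library numbered 27481573, 27349184 and 27402102 in ASCs and 24052508 and 24164447 in FAPs. Injured FAPs had 26968235, 26698572 and 27028114 reads, and the CD31+CD45+ library had 13091077.

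Chemokines are small secreted or membrane-anchored proteins that bind to sugar chains on cells and matrix and guide leukocytes along the gradients so formed. They act through receptors coupled to G proteins, whereas atypical receptors bind chemokines without such signalling. In damaged muscle and in adipose tissue, stromal cells are a known source of ligands for neutrophils and monocytes.

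Of the 56 genes, 27 had a mean normalized read count (reads of a gene divided by the library's size factor) of at least 10 over the 8 libraries of sorted stromal cells, and these were tested. Another 18 were above 0 in at least 1 of the 8 libraries but below this minimum, and 11 were at 0 in all 8, of which 8 were also at 0 in the CD31+CD45+ library. A gene high in any group passes the minimum through that group, so the tested genes do not stand for the whole family. By class, 4 of 5 ELR-type CXC ligands, 2 of 3 interferon-induced CXC ligands, 4 of 5 other CXC and CX3C ligands and 4 of 6 ligands of the MCP and eotaxin type were tested. The rest of the tested genes were 4 of 5 MIP-type CC ligands, 3 of 14 other CC ligands, 3 of 10 CC receptors and 3 of 3 atypical receptors. None of the 5 CXC receptors reached the minimum. Cxcr2, the receptor of the ELR-type ligands, stayed between 0 and 1.57 in the 8 libraries, and Cxcr3, the receptor of the interferon-induced ligands, was at 0 in each of them.

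The sort was checked against marker genes. Pdgfra, the defining surface marker of FAPs, lay between 10837 and 25268 normalized reads in the 8 libraries and at 119 in the CD31+CD45+ library. Ptprc, which codes for CD45, was listed at 0 for both FAP libraries and was at 0, 1.13 and 0 in ASCs and 11.8, 55.8 and 9.92 in injured FAPs. Pecam1, which codes for CD31, was at 83.0, 46.4 and 67.8 in ASCs, 195 and 0 in FAPs and 192, 269 and 121 in injured FAPs. The CD31+CD45+ library had 797 for Ptprc and 45323 for Pecam1. Ly6a, which codes for Sca-1, lay between 10823 and 49855 in the 8 libraries and at 17672 in the CD31+CD45+ library.

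In the FAP libraries, exact zeros were more frequent than low counts. Among genes with a mean of at least 10 over the other groups, 149 had 0 reads in both FAP libraries, while 14 had 1 read and 25 had 2 reads. In pairs of ASC libraries 44 to 65 genes had 0 reads and 58 to 65 had 1, and in pairs of injured FAP libraries 28 to 35 had 0 and 26 to 28 had 1. Endothelial genes showed the pattern within 1 cell type, since Cdh5 was at 1438 and 686 and Kdr at 1055 and 684 in the FAP libraries, but Emcn, Cldn5 and Vwf were listed at 0 in both. Of the 56 chemokine and receptor genes, 30 were listed at 0 in both FAP libraries, 5 of them tested (Ccl3, Ccl9, Ccr1 and Ccr2 among them). What produced the zeros was not tested. A fold against FAPs is therefore given for such genes only as a lower bound. The bound holds if the listed 0 is a count of reads. Its floor is the worth of 3 reads in a library, averaged over the libraries of the group. This comparison of zeros was chosen after seeing the data.

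Injured FAP replicate 2 stood apart from replicates 1 and 3. Among 28 chemokine and receptor genes with a mean of at least 10 in injured FAPs, 7 were more than 2 times as high in replicate 2 as in the mean of the other replicates, with ratios from 2.35 (Ccl9) to 9.45 (Ccl3). The ratios of the other 21 genes ran from 0.677 to 1.35. The summed level of 12 monocyte and macrophage markers was 776, 3256 and 652 in the injured FAP libraries, 706, 613 and 623 in ASCs, 274 and 506 in FAPs and 21713 in the CD31+CD45+ library. Their most abundant gene was Lyz2 in injured FAP replicate 2 and Cd68 in replicates 1 and 3, and none of the 12 was at 0 in an injured FAP library. In FAPs 9 of the 12 were listed at 0 in both libraries (Lyz2, Adgre1, Csf1r, Cd14, Ctss, C1qa, C1qb, Fcgr1 and Ms4a7), and Cd68 made up most of the sum. Summed neutrophil markers (8 genes) were 22.0, 121 and 30.5 in injured FAPs, with Csf3r the most abundant, Ngp at 0 and Ly6g at 0.785, 1.55 and 0. The same sum was 22.4, 3.40 and 3.77 in ASCs, 8.56 and 14.1 in FAPs and 752 in the CD31+CD45+ library. The part of these cells in the values of replicate 2 was not tested. Summed lymphocyte markers (8 genes) were 24.32, 21.7 and 26.7 in injured FAPs, carried by Cd79a, while Cd3e, Ms4a1 and Klrb1c were at 0 in all 8 libraries.

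**Figure D1:**
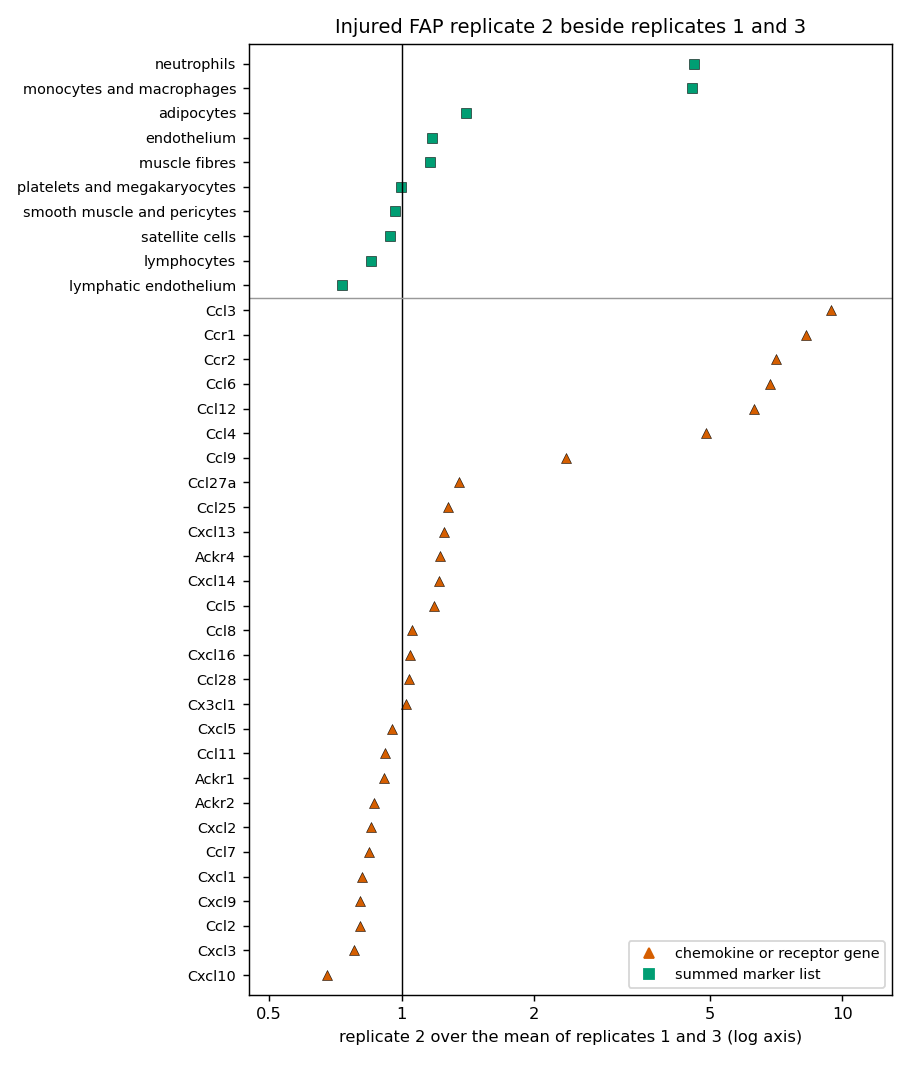
Normalized level in injured FAP replicate 2 divided by the mean of replicates 1 and 3 (log axis), for 28 chemokine and receptor genes (triangles, 1 library against 2) and for summed marker lists of 10 cell types (squares). The 7 genes above 2 are Ccl3, Ccr1, Ccr2, Ccl6, Ccl12, Ccl4 and Ccl9, and the sums of neutrophil and of monocyte and macrophage markers lie at 4.61 and 4.56.

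The comparison of injured FAPs with FAPs asked what glycerol injury changes in muscle stromal cells at day 1. Of 21 tested ligands 13 were higher and 2 lower, and all 3 atypical receptors were lower. Of the 27 tested genes, 16 were higher in injured FAPs, 5 were lower and 6 were not called. A call by limma needed both an adjusted p below 0.05 and a log2 fold change past 0.58. Over all genes tested, 24.9% were higher and 27.7% lower. The median log2 fold change was 3.30 for the 27 genes, also with the 5 genes listed at 0 in FAPs set to their bounds, and −0.05 for all 13601 tested. Without the genes listed at 0 in both FAP libraries the counts were 11 higher and 5 lower. Each call compares whole sorted populations, in which fewer cells of a type and less RNA per cell cannot be told apart.

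ASCs against FAPs, which compares the stromal cells of adipose tissue and of uninjured muscle, gave 15 higher, 4 lower and 8 not called, where 23.4% and 23.8% of all genes tested were higher and lower. The median log2 fold change was 1.19 for the 27 genes, with or without bounds, and 0.00486 for all genes. This comparison uses the same FAP libraries as the one above, so the values of each are given side by side. Called higher in both were 11 genes (Ccl2, Ccl5, Ccl7, Ccl8, Ccl9, Cxcl1, Cxcl2, Cxcl3, Cxcl5, Cxcl9 and Cxcl10), and called lower in both were Ackr4 and Ccl27a. Ackr1, Ackr2 and Ccl11 were lower in injured FAPs and higher in ASCs.

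**Figure D2:**
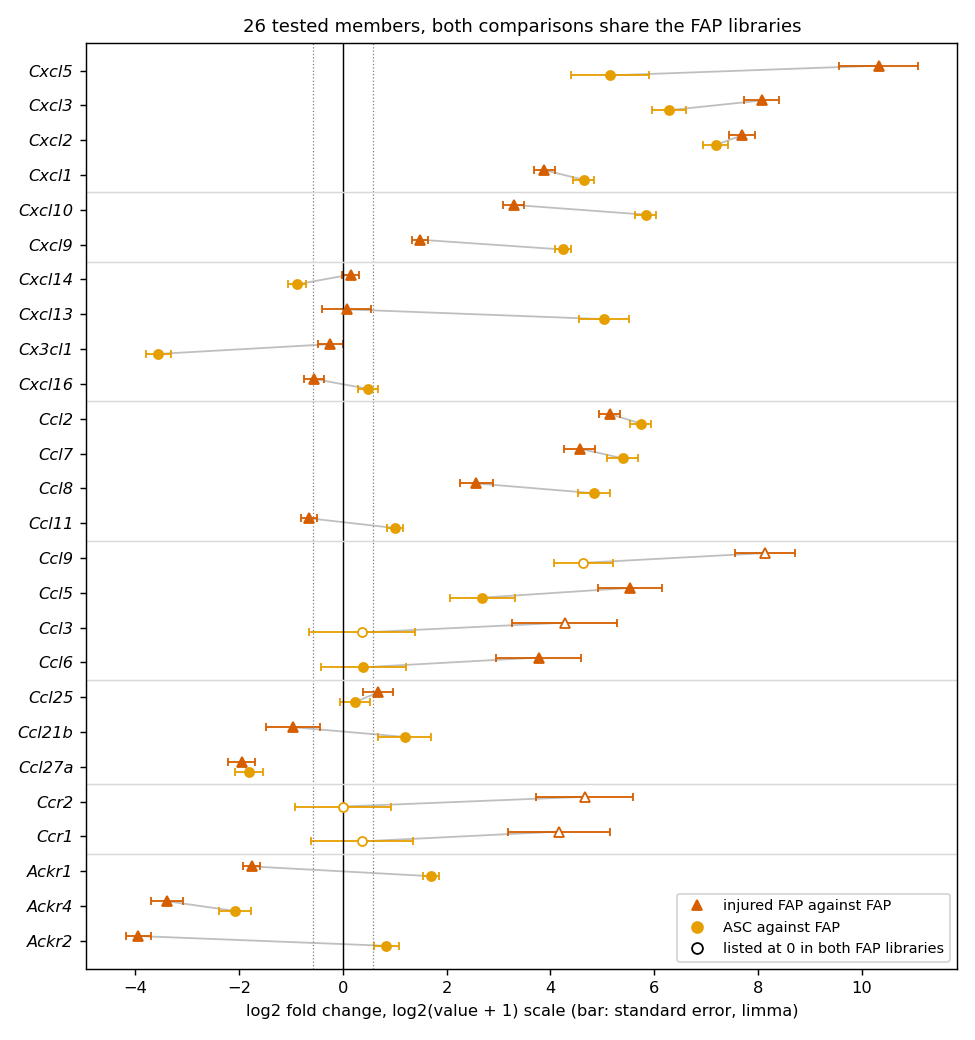
Log2 fold change on the log2(value + 1) scale of 26 tested genes in injured FAPs against FAPs (triangles) and ASCs against FAPs (circles), with bars for the standard error from limma and dotted lines at the threshold of 0.58 in either direction. Open symbols mark genes listed at 0 in both FAP libraries, for which the fitted value is no bound, and the highest value for injured FAPs is that of Cxcl5 (10.32).

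The ELR-type CXC ligands Cxcl1, Cxcl2, Cxcl3 and Cxcl5 attract neutrophils through Cxcr2. All 4 tested were higher in injured than in uninjured FAPs, and all 4 were higher in ASCs than in FAPs. Promoter windows from RefSeq (GRCm38.p6, 250 bases before to 50 after a start) were available for 40 of the 56 genes and 20 of the 27 tested, and are shown for the ligands that moved together. Windows of Cxcl5, Ccl2, Ccl5, Ccl7, Ccl11 and Cxcl16, for example, were not in the table. Letters of the kappaB type, GGNNTTTCC on either strand, stood in windows of 9 of the 40 genes (7 of the 20 tested) and in 5.82% of all 32851 windows. Capitals mark them here in 121 bases around the start on the plus strand, at chr5:90891145-90891265 for Cxcl1, chr5:90903789-90903909 for Cxcl2 and chr5:90786001-90786121 for Cxcl3.
Cxcl1: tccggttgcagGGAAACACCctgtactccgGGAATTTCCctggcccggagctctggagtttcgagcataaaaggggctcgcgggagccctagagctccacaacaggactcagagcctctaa
Cxcl2: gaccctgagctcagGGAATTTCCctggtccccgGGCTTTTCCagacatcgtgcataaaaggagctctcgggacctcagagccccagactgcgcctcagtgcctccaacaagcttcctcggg
Cxcl3: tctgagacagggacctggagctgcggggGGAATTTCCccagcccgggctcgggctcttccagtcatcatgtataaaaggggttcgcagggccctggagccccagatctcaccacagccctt
The matches begin 89 and 70 bases before the start in Cxcl1, 96 and 77 bases before it in Cxcl2 and 72 bases before it in Cxcl3. The match of Cxcl1 at 89 bases is on the other strand. A match is a description of the letters only.

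Cxcl1 had normalized read counts of 4793 and 3009 in FAPs, 57129.7, 48723 and 62696 in injured FAPs and 104733, 99092 and 82031 in ASCs. Its levels were high in injured FAPs and ASCs but lower in FAPs, with no overlap between any of the groups. The mean of injured FAPs was 14.4 times that of FAPs by a log2 fold change of 3.88 ± 0.20 (limma standard error, adjusted p = 3.95e-07), and the mean of ASCs was 24.4 times that of FAPs. Cxcl2 stood at 21.9 and 42.3 in FAPs, 6843, 5833 and 6877 in injured FAPs and 5657, 4390.0 and 3828 in ASCs. It was low in FAPs and high in every other library, at 203 times the FAP mean in injured FAPs (log2 fold change 7.69, standard error 0.24, adjusted p = 5.97e-08) and 144 times in ASCs. Cxcl3 was at 5.71 and 11.3 in FAPs, 2579.8, 2061 and 2713 in injured FAPs and 939, 859.6 and 434 in ASCs. Here the 3 groups were fully apart, with injured FAPs highest, at 288 times the FAP mean against 87.6 times for ASCs.

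Cxcl5 had the highest fold of the named genes in injured FAPs against FAPs. Its normalized read counts were 8.56 and 42.3 in FAPs, 24537, 25243 and 28574 in injured FAPs and 1234, 1378 and 217 in ASCs. Injured FAPs were far above both other groups, and ASC replicate 3 was below the other ASC libraries but above FAPs. Against FAPs the mean was 1026 times as high in injured FAPs (log2 fold change 10.32 with standard error 0.76, limma adjusted p = 2.00e-06) and 37.1 times in ASCs (log2 fold change 5.14). The folds depended on the FAP library used, and were 617 and 22.3 without FAP replicate 1 and 3052 and 110 without FAP replicate 2. Cxcl15, the remaining ELR-type ligand, was below the minimum, with at most 5.27 in any library. Summed over the class, ELR-type ligands made up 0.0211% and 0.0137% of all normalized counts in FAPs, 0.430%, 0.396% and 0.489% in injured FAPs and 0.311%, 0.341% and 0.251% in ASCs. The mean share was 25.2 times as high in injured FAPs as in FAPs and 17.3 times in ASCs, whereas by summed normalized counts the folds were 23.0 and 25.6, so the order of injured FAPs and ASCs reverses with the scale.

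**Figure D3:**
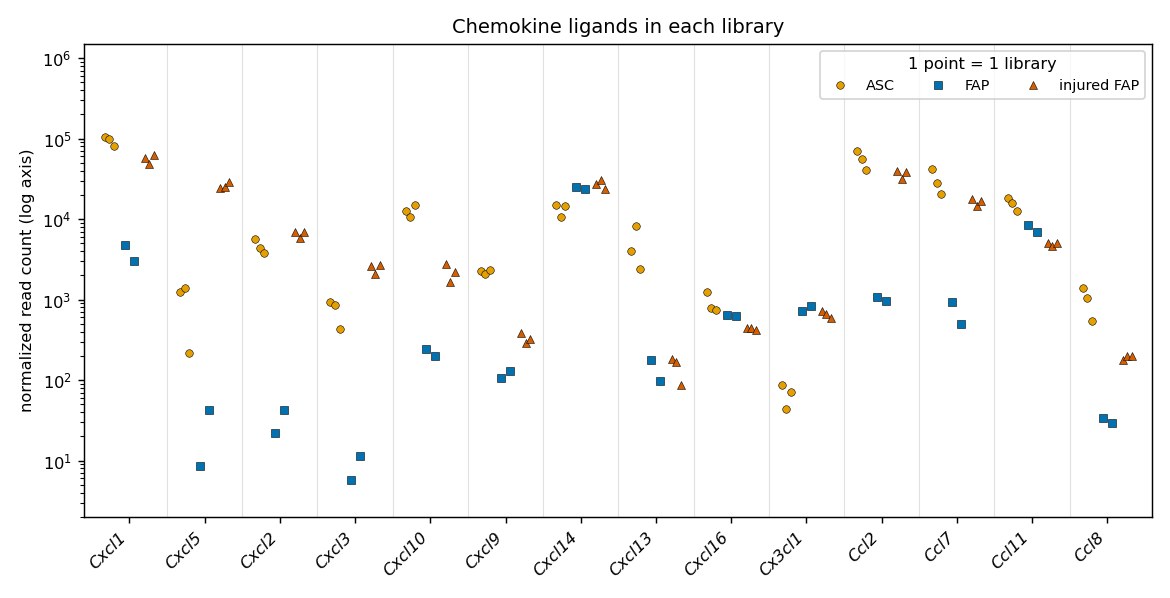
Normalized read counts (log axis) of 14 chemokine ligand genes, with 1 point for each of the 3 ASC, 2 FAP and 3 injured FAP libraries. Cxcl1, Cxcl2, Cxcl3, Cxcl5, Ccl2 and Ccl7 lie low in FAPs and high in both other groups, whereas Cxcl14 in FAPs (25139.8 and 23879) lies within the range of injured FAPs.

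Cxcl9 and Cxcl10, which interferon induces and which attract T cells and NK cells through Cxcr3, were higher in injured than in uninjured FAPs and higher still in ASCs. Their windows on the minus strand of GRCm38.p6, 250 bases up to the start at chr5:92328080-92328329 and chr5:92348890-92349139, are shown because both genes moved together and both hold 2 kinds of letters. Capitals mark GGNNTTTCC and, of the interferon response type, GAAANNGAA, each searched on both strands.
Cxcl9: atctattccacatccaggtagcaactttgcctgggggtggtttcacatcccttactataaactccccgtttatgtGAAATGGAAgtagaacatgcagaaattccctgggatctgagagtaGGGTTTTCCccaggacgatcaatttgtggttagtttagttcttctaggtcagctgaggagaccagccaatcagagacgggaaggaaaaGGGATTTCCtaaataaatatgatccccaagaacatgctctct
Cxcl10: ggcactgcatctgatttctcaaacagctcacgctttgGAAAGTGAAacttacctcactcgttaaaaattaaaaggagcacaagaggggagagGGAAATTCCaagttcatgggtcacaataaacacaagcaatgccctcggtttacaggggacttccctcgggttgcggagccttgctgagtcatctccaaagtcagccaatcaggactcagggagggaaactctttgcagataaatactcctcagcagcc
In Cxcl9 the interferon type begins 175 bases before the start and the kappaB type 130 and 42 bases before it. In Cxcl10 they begin 213 and 158 bases before it, the kappaB match on the other strand. The interferon type was found in windows of 8 of the 40 genes (5 of the 20 tested) and in 8.56% of all windows, and its letters can overlap those of the kappaB type read from the other strand. For comparison, TGANTCA of the AP-1 type was found for 8 of the 40 genes and in 7.81% of all windows, and TATAAA of the TATA box type for 11 and in 13.6%. Tested genes with a kappaB or interferon type match were not all higher in injured FAPs than in FAPs. Ackr4 (kappaB type) was lower there and Cxcl14 (interferon type) was not called.

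Normalized read counts of Cxcl9 were 105 and 129.8 in FAPs, 385, 285 and 324 in injured FAPs and 2280.3, 2052 and 2325 in ASCs. Cxcl10 followed the same order, with 242 and 198 in FAPs, 2748, 1669 and 2181 in injured FAPs and 12574, 10607 and 14837 in ASCs. For both genes the groups did not overlap, and ASCs were highest. Injured FAPs had 2.83 times the FAP mean of Cxcl9 (log2 fold change 1.49 with standard error 0.15, limma adjusted p = 1.64e-05) and 10.02 times that of Cxcl10 (log2 fold change 3.30, standard error 0.20, adjusted p = 8.09e-07). In ASCs the folds over FAPs were 18.9 and 57.7. Art3, whose exons overlap those of Cxcl10 on the opposite strand, had means of 422 in FAPs, 128 in injured FAPs and 239 in ASCs, and moved the other way in both comparisons. Cxcl11, the remaining ligand of Cxcr3, was below the minimum.

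Ccl2, Ccl7 and Ccl8 attract monocytes, the former pair through Ccr2, and Ccl11 attracts eosinophils through Ccr3. Of these 4 tested genes, 3 were higher and Ccl11 was lower in injured FAPs than in FAPs, and all 4 were higher in ASCs than in FAPs. Ccl2 stood at 1079 and 964 normalized reads in FAPs, 39116, 31059.9 and 38199 in injured FAPs and 70413, 55798 and 41304 in ASCs. Ccl7 stood at 940.4 and 499 in FAPs, 17797, 14474 and 16595 in injured FAPs and 41802, 28287 and 20266 in ASCs. Both were high in injured FAPs and ASCs, and no FAP library came near them. Ccl2 was 35.4 times the FAP mean in injured FAPs (log2 fold change 5.14 with standard error 0.20, limma adjusted p = 1.88e-07) and 54.6 times in ASCs, and Ccl7 was 22.6 and 41.9 times the FAP mean.

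Ccl8 was at 34.2 and 29.2 normalized reads in FAPs, 179, 199.9 and 199.8 in injured FAPs and 1391, 1059 and 547 in ASCs. Its order of groups, FAPs lowest and ASCs highest, held in every library, with 6.09 times the FAP mean in injured FAPs and 31.5 times in ASCs. Ccl11 had 8554 and 6968 in FAPs, 5041, 4605 and 5023 in injured FAPs and 18414, 16034 and 12612 in ASCs. Its groups did not overlap, and injured FAPs were lowest. In injured FAPs the FAP mean was 1.59 times as high as theirs, with a log2 fold change of −0.66 (limma adjusted p = 0.00381, standard error 0.16). That call was lost without FAP replicate 1 (−0.51, adjusted p = 0.052) and with libraries scaled to a common total (−0.53). In ASCs Ccl11 was 2.02 times the FAP mean (log2 fold change 1.01, adjusted p = 0.000323), a call lost with quantile normalization (0.28) and with a common total (0.44). Ccl12, which acts on Ccr2 in mice, was below the minimum, with 7.85, 51.1 and 8.39 in injured FAPs and 0 in the ASC and FAP libraries. Ccl1 was below it too.

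The MIP-type CC ligands draw monocytes and other leukocytes, in part through Ccr1. All 4 tested (Ccl3, Ccl5, Ccl6 and Ccl9) were called higher in injured FAPs than in FAPs, and Ccl5 and Ccl9 were also called higher in ASCs. Ccl5 was at 3.80 and 0 normalized reads in FAPs, 91.8, 112 and 98.4 in injured FAPs and 14.5, 20.4 and 7.53 in ASCs. The injured FAP libraries were close to each other and above every other library of the 3 groups. Their log2 fold change over FAPs was 5.53 (limma adjusted p = 3.05e-05, standard error 0.62). The mean of Ccl5 over the ASC and FAP libraries was below 10, so it passed the minimum only through injured FAPs and had to differ. Its FAP mean (1.90) lay below the floor for FAPs (2.84), so the size of this change is uncertain. Ccl9 was listed at 0 in both FAP libraries, at 206, 495 and 215 in injured FAPs and at 32.9, 39.6 and 10.04 in ASCs. If the listed 0 is a count, injured FAPs were at least 108-fold higher, or 74.1-fold without injured FAP replicate 2, and ASCs at least 9.71-fold higher.

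Ccl6 stood at 9.51 and 12.2 normalized reads in FAPs, 83.2, 577 and 85.4 in injured FAPs and 34.3, 11.3 and 7.53 in ASCs. Replicate 2 was far above the other injured FAP libraries, which were themselves above FAPs. The mean was 22.9 times that of FAPs and 7.76 times without replicate 2. Ccl3, which passed the minimum only through injured FAPs and so had to differ, was listed at 0 in FAPs and was at 10.2, 80.6 and 6.86 in injured FAPs, at least 11.5-fold higher if the 0 is a count and at least 3.01-fold without replicate 2. Ccl4, which was below the minimum, showed the same split, with 10.2, 55.02 and 12.2 in injured FAPs. In the CD31+CD45+ library these ligands were higher than in any other, with 876 for Ccl6, 705 for Ccl9, 469 for Ccl3, 259 for Ccl4 and 124 for Ccl5. The share of these cells in the sorted FAPs was not tested beyond the marker sums given above.

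**Figure D4:**
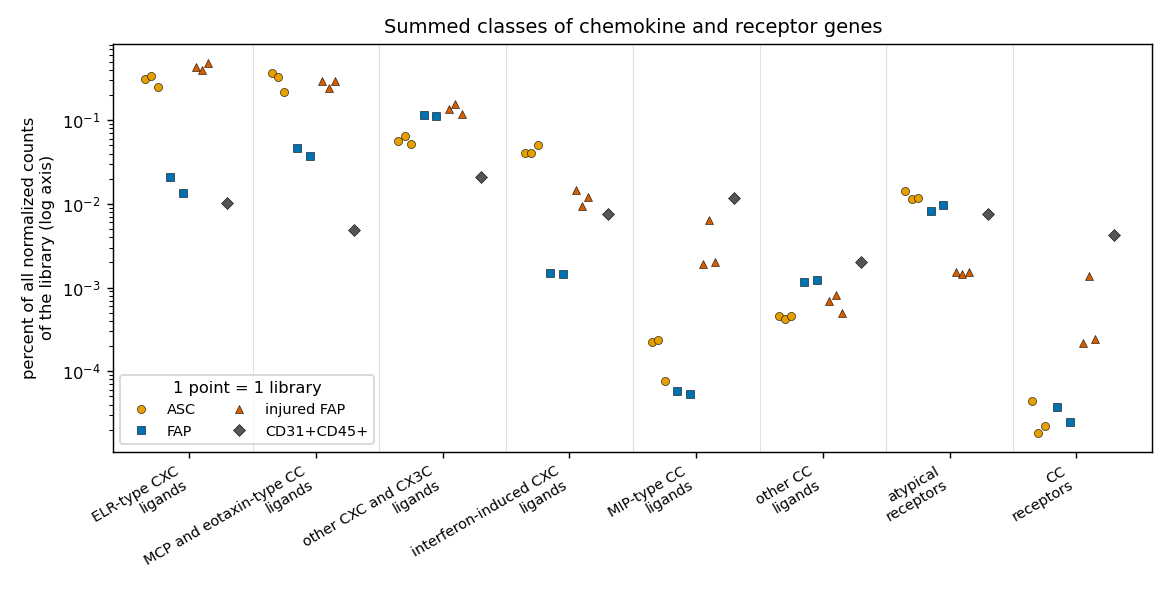
Summed normalized counts of each class of chemokine and receptor genes as a percent of all normalized counts of the library (log axis), with 1 point per library. ELR-type ligands take 0.0211% and 0.0137% in FAPs but reach 0.489% in an injured FAP library, atypical receptors lie lowest in injured FAPs, and MIP-type ligands and CC receptors are highest in the CD31+CD45+ library.

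The other CXC and CX3C ligands differed from the classes above, with none of the 4 tested called in injured FAPs against FAPs. Cxcl14, a ligand made by resting epithelia and stroma, had normalized read counts of 25139.8 and 23879 in FAPs, 27582, 31016 and 23458 in injured FAPs and 15051, 10679 and 14626 in ASCs. FAPs and injured FAPs overlapped (log2 fold change 0.15, adjusted p = 0.454 from limma), and every ASC library was below both, with a log2 fold change against FAPs of −0.88 (standard error 0.17, adjusted p = 0.00124). Cx3cl1, the membrane-anchored fractalkine, was at 731 and 822 in FAPs, 719, 666 and 585 in injured FAPs and 85.6, 44.2 and 71.6 in ASCs. It was low in ASCs, where the FAP mean was 11.6 times theirs (log2 fold change −3.56, adjusted p = 1.25e-06). For injured FAPs the log2 fold change was −0.24 (adjusted p = 0.389).

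Cxcl13, which attracts B cells through Cxcr5, showed the opposite, with 179.7 and 96.9 normalized reads in FAPs, 183, 168 and 86.9 in injured FAPs and 4026, 8308 and 2432 in ASCs. It was high in ASCs only, at 35.6 times the FAP mean (log2 fold change 5.03 with standard error 0.48, limma adjusted p = 1.15e-05), or 23.3 times without ASC replicate 2, and the FAP and injured FAP values overlapped. Cxcl16, a membrane-bound ligand of Cxcr6, was at 650.4 and 632 in FAPs, 445, 449 and 415 in injured FAPs and 1237, 791 and 733 in ASCs. Its groups did not overlap, but it was called in neither comparison with FAPs, with log2 fold changes of −0.55 (adjusted p = 0.0274) and 0.48 (adjusted p = 0.0527). It was called lower in injured FAPs with quantile normalization (−0.70) and with a common 75th percentile (−0.65), and higher in ASCs without ASC replicate 3 (0.62). Zmynd15, which overlaps it on the opposite strand, was lower in injured FAPs as well (log2 fold change −0.89). Cxcl17 was below the minimum, with at most 9.22.

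Among the other CC ligands, many of which guide lymphocytes, 3 of 14 were tested. Ccl27a, a ligand of Ccr10, was at 222 and 222 normalized reads in FAPs, 65.9, 70.5 and 38.9 in injured FAPs and 59.3, 57.8 and 71.6 in ASCs. It was lower than in FAPs in both groups, with log2 fold changes of −1.95 and −1.81, and it shares sequence with the near-identical copy Ccl27b. Il11ra1, which overlaps Ccl27a on the opposite strand and is more abundant (means of 7799 in FAPs, 3723 in injured FAPs and 7502 in ASCs), was lower in injured FAPs too (−1.07) but not in ASCs (−0.06). Ccl21b, a ligand of Ccr7, was called by limma in neither comparison with FAPs (log2 fold change of ASCs 1.19, adjusted p = 0.0671). In ASCs it was called higher by DESeq2 (1.35), with the replicate block (1.47), quantile normalization (1.73), a pseudocount of 8 (0.95) and unadjusted p. Its reads cannot be separated from those of Ccl21a, Ccl21c and Ccl21d, which were at 0 in every library. Ccl25, the ligand of Ccr9, was not called in injured FAPs against FAPs (log2 fold change 0.68, adjusted p = 0.0633), although it was without ASC replicate 1 (adjusted p = 0.0353) or ASC replicate 3 (adjusted p = 0.0473). It was called there also with quantile normalization (1.13), a common total (0.81), only the compared groups in the fit (0.68) and unadjusted p, and in ASCs against FAPs with quantile normalization (0.83). Elavl1, which overlaps Ccl25 on the opposite strand, had means of 1198 in FAPs, 1854 in injured FAPs and 2088 in ASCs and a log2 fold change of 0.64 in injured FAPs. Of the 11 not tested, Ccl28 reached 11.4 and Ccl20 reached 10.98 in an injured FAP library, and the other 9 reached at most 6.97 in the 8 libraries.

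Among the tested signalling receptors were Ccr1 and Ccr2, which monocytes and macrophages carry. Ccr2 was at 0 in all ASC libraries, listed at 0 in FAPs, and at 9.42, 89.9 and 16.0 normalized reads in injured FAPs. Ccr1 was at 0, 1.13 and 0 in ASCs, listed at 0 in FAPs, and at 8.63, 67.4 and 7.63 in injured FAPs. Each was highest in replicate 2, the library in which the summed monocyte and macrophage markers were 4.56 times those of replicates 1 and 3. Both were called higher in injured FAPs, but they passed the minimum only through that group and so had to differ. In ASCs against FAPs neither was called. If the listed 0 is a count, the lower bounds of the fold were 13.5 and 9.83, and without replicate 2 they were 4.48 and 2.86. Of 7 CC receptors below the minimum, Ccr7 reached 9.30 in injured FAP replicate 2, Ccr10 reached 6.66 in a FAP library and Ccr9 4.65, while the others stayed at or below 2.51. Cxcr5 reached 3.05, and Cxcr1 and Cxcr6 were at 0 in all 9 libraries.

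**Figure D5:**
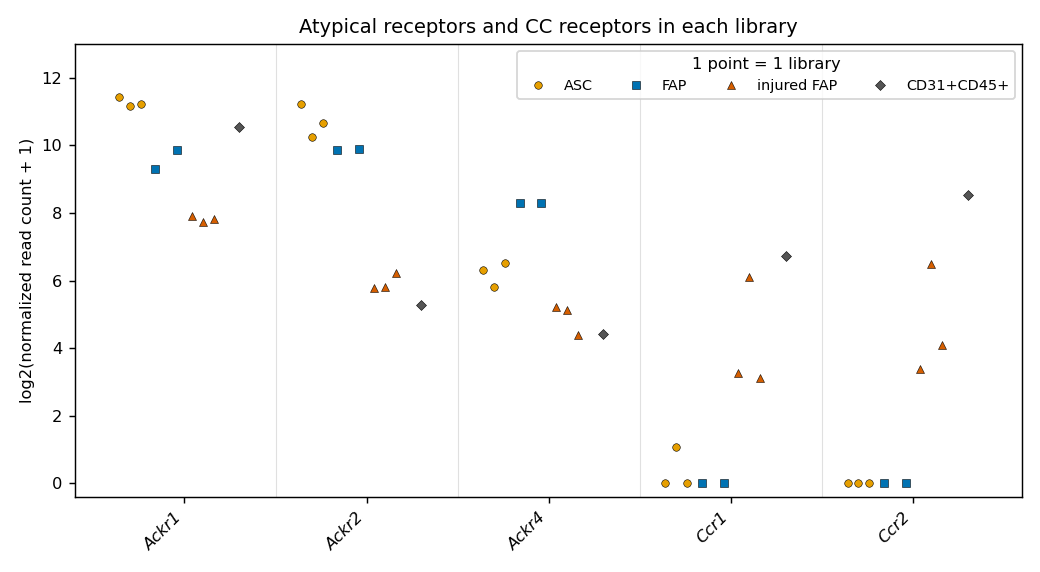
Log2(normalized read count + 1) of the 3 atypical receptors and of Ccr1 and Ccr2, with 1 point for each library. Ackr1, Ackr2 and Ackr4 are lowest in injured FAPs among the 3 sorted FAP and ASC groups, and Ccr1 and Ccr2 are highest in the CD31+CD45+ library, followed by injured FAP replicate 2.

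All 3 atypical receptors were lower in injured FAPs than in FAPs. Ackr2, which binds and degrades inflammatory CC ligands such as Ccl2 and Ccl5, had normalized read counts of 935 and 945 in FAPs, 54.1, 55.02 and 73.2 in injured FAPs and 2387, 1227 and 1621 in ASCs. Ackr4, which removes Ccl19, Ccl21 and Ccl25, had 316 and 311 in FAPs, 36.1, 34.1 and 19.8 in injured FAPs and 79.0, 55.5 and 90.4 in ASCs. Ackr1, which binds CXC and CC ligands on venules and erythroid cells, had 628 and 924 in FAPs, 239, 212 and 225 in injured FAPs and 2757, 2307 and 2386 in ASCs. Injured FAPs were the lowest group for each gene, with no overlap, while ASCs were highest for Ackr1 and Ackr2 and between the other groups for Ackr4. The FAP mean was 15.5 times that of injured FAPs for Ackr2 (log2 fold change −3.94 with standard error 0.24, limma adjusted p = 8.20e-07). For Ackr4 it was 10.4 times (log2 fold change −3.39, standard error 0.30, adjusted p = 6.21e-06), and for Ackr1 it was 3.45 times (log2 fold change −1.76, standard error 0.16, adjusted p = 7.72e-06).

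In ASCs against FAPs, Ackr1 was 3.20 times as high (log2 fold change 1.70), and the FAP mean of Ackr4 was 4.18 times that of ASCs (log2 fold change −2.08). Ackr2 was 1.86 times as high in ASCs (log2 fold change 0.84, adjusted p = 0.0128 from limma), a call lost without FAP replicate 1 (0.83, adjusted p = 0.0644), without FAP replicate 2 (0.85, adjusted p = 0.0636) and with a common library total (log2 fold change 0.27). Exons of Cadm3 overlap those of Ackr1 on the same strand, and Cadm3 moved in the same directions at higher means (8358 in FAPs, 2606 in injured FAPs and 26257 in ASCs, log2 fold changes of −1.68 and 1.65), so the 2 genes cannot be told apart for shared reads. Acad11, which overlaps Ackr4 on the opposite strand, was not lower in injured FAPs (log2 fold change 0.20). Endothelial cells, which carry Ackr1, had summed markers (12 genes) of 7261 and 4934 in FAPs, 2017, 2199 and 1734 in injured FAPs and 6630.3, 5218 and 7006 in ASCs. Tek was the most abundant of them in FAPs and ASCs and Cdh5 in injured FAPs, and the part of such cells in Ackr1 was not tested. Of 11 tested, 6 were lower and 2 higher in injured FAPs, and 7 were lower and 3 higher in ASCs, where Tek alone made up 5986, 4841 and 6700 of the sums. Shares over all genes tested were 27.7% lower and 24.9% higher in injured FAPs, and 23.8% and 23.4% in ASCs. The 2 higher in injured FAPs, Emcn and Cldn5, were listed at 0 in FAPs. They passed the minimum only through injured FAPs, so they had to differ. Lymphatic endothelial markers (5 genes), another known site of Ackr2 and Ackr4, summed to 440.3 and 533 in FAPs, 654, 495 and 700.2 in injured FAPs and 282, 174 and 189.6 in ASCs. Of these, Reln was the most abundant in FAPs and injured FAPs, and Lyve1 was listed at 0 in FAPs. Of 4 tested, Prox1 and Flt4 were lower in injured FAPs (log2 fold changes of −1.11 and −1.67), Lyve1 was higher, and Reln was not called (0.83).

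Levels of the genes were set against each other per kb of exon. In FAPs, Cxcl14 was first (mean 13415 normalized reads per kb), followed by Ccl11 (7173) and Cxcl1 (2081), and the ranges of these neighbours over the libraries did not overlap. Ccl7 and Ccl2 came next at 898.3 and 897.9, and their ranges overlapped. Injured FAPs were led by Ccl2 (31744) and Cxcl1 (29964), whose ranges overlapped, then Ccl7 (20336), Cxcl14 (14971), Cxcl5 (14019) and Ccl11 (4519), and the ranges of Cxcl14 and Cxcl5 overlapped. In ASCs the order was Cxcl1 (50819), Ccl2 (49067) and Ccl7 (37601), each overlapping the next, then Ccl11 (14498) and Cxcl14 (7363). As a share of the summed ligand counts, Cxcl14 took 61.1% ± 3.33 in FAPs (2 libraries), and in the other groups (3 libraries each) 15.3% ± 3.03 for injured FAPs and 5.76% ± 1.53 for ASCs, where ± gives the standard deviation. Cxcl1 took 9.60% ± 2.27 in FAPs, 31.0% ± 2.14 in injured FAPs and 40.2% ± 2.41 in ASCs, and Cxcl5 took 0.0663% ± 0.0654, 14.5% ± 1.09 and 0.376% ± 0.239. All ligands together made up 0.187% and 0.165% of the normalized counts of the FAP libraries, 0.878%, 0.812% and 0.914% in injured FAPs and 0.774%, 0.773% and 0.571% in ASCs. By summed normalized counts the order of injured FAPs and ASCs was the reverse, with means of 180763 and 238712. In the CD31+CD45+ library ligands made up 0.0573%.

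Injured FAPs were also compared with ASCs, the 2 groups with high ligand levels. Of the 27 genes, 11 were higher in injured FAPs, 13 lower and 3 not called, where 25% and 25.8% of all genes tested were higher and lower, and the median log2 fold change was −0.14 against 0.02 for all genes. With libraries scaled to a common total, the split was 13 higher and 9 lower. That scaling moved the median of all genes to 0.71, because the normalized counts of ASC libraries sum to more than those of injured FAPs. Without the genes listed at 0 in both FAP libraries the split was 6 and 13. Among those higher in injured FAPs were Cxcl5 (27.7 times the ASC mean, log2 fold change 5.18), Cxcl3 (3.29 times, 1.79), Cx3cl1 (9.78 times, 3.32), Cxcl14 (2.03 times, 1.03), the 4 MIP-type ligands, Ccr1 and Ccr2. Of these, Ccl3, Ccl5, Ccr1 and Ccr2 passed the minimum only through injured FAPs and so had to differ. Over the floor of ASCs, where Ccr1 had 1 read and Ccr2 none, Ccr2 was at least 10.4-fold and Ccr1 at least 7.53-fold higher, or 3.43-fold and 2.19-fold without injured FAP replicate 2.

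Lower in injured FAPs than in ASCs were the 3 atypical receptors, with the ASC mean 28.7 times theirs for Ackr2, 11.04 times for Ackr1 and 2.50 times for Ackr4. Cxcl13 (33.7 times, or 22.1 times without ASC replicate 2), Cxcl9 (6.69 times), Cxcl10 (5.76 times), Ccl8 (5.18 times) and Ccl11 (3.21 times) were lower as well. Cxcl16 was lower with a log2 fold change of −1.04, a call lost with a common total (−0.34), and Ccl21b with −2.15. Smaller differences were called for Cxcl1 (log2 fold change −0.76), Ccl2 (−0.60) and Ccl7 (−0.83), and those changed with the scaling. With quantile normalization Cxcl1 was at 0.40 and Ccl2 at 0.56, and with a common total Ccl2 was at 0.10, each now above 0. With a common total Cxcl1 was at −0.06 and Ccl7 at −0.13, and with quantile normalization Ccl7 was at −0.03. Ccl2 was short of the threshold with a common 75th percentile (−0.49) and by edgeR (−0.54). Without ASC replicate 1 the calls of Ccl2 (−0.42) and Ccl7 (−0.56) were lost, and without injured FAP replicate 2 they were lost too (−0.50 and −0.75). Cxcl2 was not called (0.51, adjusted p = 0.0591 from limma) and was called higher without ASC replicate 1 (0.66), by edgeR (0.58), with quantile normalization (0.91), a common 75th percentile (0.62) and a common total (1.21).

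Many of the genes lie in clusters on the GRCm38 genome, a feature the name rule did not use. On chromosome 5, Cxcl5, Cxcl3, Cxcl15, Cxcl1 and Cxcl2 lie between 90759360 and 90905938, and Cxcl9, Cxcl10 and Cxcl11 between 92321347 and 92365485. In each stretch every tested gene of the name rule was higher in injured FAPs and in ASCs than in FAPs. Pf4 and Ppbp, chemokine genes outside the rule that lie in the first stretch, were not called in ASCs against FAPs, and Art3 in the other stretch was lower. Ccl2, Ccl7, Ccl11, Ccl12 and Ccl8 lie in that order on chromosome 11 between 82035571 and 82116799. Ccl11 differed there, lower in injured FAPs than in FAPs while Ccl7, which ends 10.3 kb before it, was higher. A further stretch of that chromosome, from 83525778 to 83664683, holds Ccl5, Ccl9, Ccl6, Ccl3 and Ccl4, and all 4 tested were higher in injured FAPs than in either other group. Of these, Ccl3 and Ccl5 passed the minimum only through injured FAPs and so had to differ. Ccl3 and Ccl9 were listed at 0 in both FAP libraries, and Ccl3, Ccl6 and Ccl9 were highest in injured FAP replicate 2.

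Other genes of chemokine biology were taken from lists of related genes. Beside their counts stand the shares over all genes tested, 24.9% higher and 27.7% lower in injured FAPs against FAPs, 23.4% and 23.8% for ASCs against FAPs, then 25% and 25.8% for injured FAPs against ASCs. Of 8 chemokines and receptors outside the name rule, 5 were tested, and 4 were higher and 0 lower in injured FAPs than in FAPs, of which Pf4 and Ppbp passed the minimum only through injured FAPs and so had to differ. Mif, a chemokine-like cytokine, was at 733 and 689.6 normalized reads in FAPs, 5154, 4925 and 4630.4 in injured FAPs and 921, 1190.4 and 768 in ASCs. It was high in injured FAPs only, with a log2 fold change over FAPs of 2.78. The platelet chemokines Pf4 and Ppbp were listed at 0 in both FAP libraries, and in injured FAPs Pf4 was at 33.7, 164 and 33.6 and Ppbp at 22.0, 76.7 and 25.9, each highest in replicate 2. Summed markers of platelets and megakaryocytes (6 genes) were 307, 299 and 294 in injured FAPs and 418 and 566 in FAPs, mostly Itga2b, with a ratio of replicate 2 to the other injured FAP libraries of 0.995. In ASCs against FAPs 1 of the 5 was higher, Ccrl2 (log2 fold change 1.61), which codes for a non-signalling receptor.

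Receptors for the cytokines and microbial products that switch on chemokine genes, listed with the adaptor gene Myd88, were mostly higher in ASCs. Of these 18 genes, all tested, 12 were higher and 1 lower in ASCs than in FAPs, and 5 were higher and 2 lower in injured FAPs than in FAPs. Il13ra1, a receptor chain for IL-13, had log2 fold changes of 2.22 in injured FAPs and 1.28 in ASCs. For Il17ra, the IL-17 receptor chain, they were 1.97 and 3.96, and for Il4ra, the IL-4 receptor chain, 1.89 and 3.48. Of 16 transcription factors and inhibitors that act on chemokine genes, 9 were higher and 3 lower in injured FAPs than in FAPs, and 12 were higher and 1 lower in ASCs. Irf7, a factor of the interferon response, had log2 fold changes of 2.22 and 2.88, and Nfkbia, the inhibitor that NF-kappaB itself induces, 2.16 and 2.04. Jun, an AP-1 subunit, was lower in both (−1.49 and −0.87). In injured FAPs against ASCs, 11 of these 18 genes and 12 of the 16 factors were lower, with 1 higher in each list.

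Of 7 genes that control the decay of chemokine mRNA, 3 were higher and 0 lower in injured FAPs than in FAPs. Hnrnpd, an mRNA-binding protein, had a log2 fold change of 1.71, the ribonuclease gene Zc3h12a 1.09 and the stabilizing factor Elavl1 0.64. In ASCs against FAPs 4 of the 7 were higher and 0 lower. Among 16 genes for cleavage, shedding and surface display of chemokines, 7 were higher and 2 lower in injured FAPs than in FAPs, and 9 were higher and 1 lower in ASCs. Mmp9, a gelatinase gene, was at 0 and 2.82 normalized reads in FAPs, 88.7, 149 and 118 in injured FAPs and 21.1, 6.80 and 22.6 in ASCs. Tnfaip6, whose product binds chemokines and hyaluronan, had log2 fold changes over FAPs of 2.37 in injured FAPs and 4.71 in ASCs, and the gelatinase gene Mmp2 had −1.28 and 0.92. Of 22 genes for signalling below the receptors, 21 were in the table and 20 were tested, with 5 higher and 7 lower in injured FAPs than in FAPs and 4 higher and 6 lower in ASCs. Rgs16, which ends G protein signals, had log2 fold changes of 2.50 and 2.07. The leukocyte genes Rac2 and Dock2, 2 of the 5, passed the minimum only through injured FAPs and so had to differ. They were listed at 0 in FAPs and were at 13.3, 76.7 and 12.2 and at 9.42, 59.7 and 16.0 in injured FAPs, again highest in replicate 2.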

How the data were processed

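Upstream of the deposit the authors used fastq_illumina_filter, FastQC, HISAT2, featureCounts (Subread) and DESeq2. They deposited a signal per gene and library, normalized read counts whose scaling is not stated, and 2 columns of the file are empty. In every library 100% of the values were whole reads (within 0.1 read) divided by a size factor. The strand setting and the treatment of reads with several matches are not stated, so overlapping genes and near-identical copies are uncertain.

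Members came from the name rule, and members and gene lists were chosen with earlier results of these data known. Log2(value + 1) was fitted with limma 3.58.1 in R 4.3.3 (trend in the prior variance, 3 groups in 1 fit of 8 libraries, 5 residual degrees of freedom), and p was adjusted after Benjamini-Hochberg within each comparison (13601 genes, mean of 10 or more). A call needed both an adjusted p below 0.05 and a log2 fold change past 0.58. The log2(value + 1) scale understates the change of low genes, and folds printed as "times" are ratios of mean values. The p-values measure the spread between pooled libraries, not between animals, and only technical spread if the libraries of a group share a pool. The precision of low genes is set by depth, since 3 reads are worth 2.29 to 4.71 normalized reads by library, and floors cover counting error only. EdgeR 4.0.16 and DESeq2 1.42.0, run on the recovered reads, called 7303 and 7227 genes for injured FAPs against FAPs, 6450 and 6412 for ASCs against FAPs, then 7000 and 6865 for injured FAPs against ASCs, beside 7153, 6416 and 6909 by limma. The limma fit was tested on simulated data.

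Values of every library are given for the 14 ligands and up to 6 receptors with the highest group means among tested genes, for genes called in opposite directions, and where a class has few tested genes, the latter chosen after their values were seen. Of each other list up to 3 called genes with the largest change in injured FAPs against FAPs are named. Positions and exon lengths are from GENCODE M21 (GRCm38). Alternatives varied the pseudocount, filter, scaling, p threshold, groups in the fit, replicate block, tool and each library in turn. A common library total, and leaving out genes listed at 0 in both FAP libraries, were chosen after seeing the data.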

Additional observations from a re-analysis of the deposited data

Results flagged for a closer look

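The CD31+CD45+ library is outside every comparison, and the 18 genes given here stood higher in it than in all 8 other libraries and above 4.71, the worth of 3 reads there. Of these, 9 code for receptors and 9 for ligands. The receptors were Ccr2 (370.4 normalized reads), Ccr7 (152), Ccr1 (105), Cxcr5 (87.9), Cxcr2 (23.5), Cxcr3 (20.4), Ccr3 (12.6), Ccr9 (12.6) and Ccr8 (6.28). The ligands were Cx3cl1 (3277), Ccl6 (876), Ccl9 (705), Ccl3 (469), Ccl4 (259), Ccl24 (212), Ccl5 (124), Ccl22 (18.8) and Ccl28 (15.7). Cxcr5 and Ccr9 share exonic sequence with other genes on the opposite strand, and Ccr9 also with Gm17200 on the same strand. The library has no replicate, so these are values of that library with no test.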

How the results depend on the processing

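Of 1185 values of 19 named genes under 21 alternatives, 1157 kept their direction and their side of the threshold, 17 were no longer past it, 8 were newly past it and 3 changed sign. Those 3 are log2 fold changes of injured FAPs against ASCs, 0.40 for Cxcl1 and 0.56 for Ccl2 with quantile normalization and 0.10 for Ccl2 with a common library total, and the cause was not tested. Over all alternatives the counts ran from 11 to 20 (higher) and 4 to 6 (lower) in injured FAPs against FAPs, from 13 to 16 and 4 to 4 for ASCs against FAPs, then from 6 to 15 and 9 to 13 in injured FAPs against ASCs. With 1 library left out they ran from 16 to 17, 4 to 5, 14 to 16, 4 to 4, 11 to 12 and 11 to 13 in that order. The number higher in injured FAPs than in ASCs fell to 6 with a mean of at least 50, and to 6 without genes listed at 0 in both FAP libraries. The median of all genes moved with a common 75th percentile (−0.20 in ASCs against FAPs, −0.15 in injured FAPs against FAPs, 0.13 in injured FAPs against ASCs) and with a common total (−0.56, 0.08 and 0.71).

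The replicate block gave 16 higher and 5 lower in injured FAPs against FAPs, 16 and 4 for ASCs against FAPs, then 11 and 13 for injured FAPs against ASCs. Deviations from the group means of libraries with the same number showed little correlation (−0.054 to 0.045). With means of so few libraries, these correlations cannot tell whether equal numbers stand for the same animals or batch.

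Depth limits the 18 genes below the minimum, and FAPs have 2 libraries, so their spread leans on the other groups.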

Other observations

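Markers of the remaining cell types were summed in each library. Beside the counts of called markers stand the shares over all genes tested, 24.9% higher and 27.7% lower in injured FAPs against FAPs. Smooth muscle and pericyte markers (9 genes) summed to 25035 and 22102 in FAPs, 10851, 10517 and 10952 in injured FAPs and 5719, 3748 and 4700.1 in ASCs, and 8 of 9 were lower in injured FAPs than in FAPs, led by Myh11 (log2 fold change −3.09), Kcnj8 (−2.16) and Acta2 (−1.88). Muscle fibre markers (9 genes) summed to 891 and 1078 in FAPs and 319, 337 and 262 in injured FAPs. In ASCs they summed to 186, 139 and 178. Of these, 6 of 8 tested were lower in injured FAPs than in FAPs, led by Tnnt3 (−2.12), Myh1 (−2.07) and Tnnc2 (−1.89). Myh1 and Tnnc2 passed the minimum only through FAPs. Satellite cell markers (6 genes) summed to 3465 and 3199.6 in FAPs, 6104, 5549.7 and 5684 in injured FAPs and 6964, 4968 and 3931 in ASCs, mostly Sdc4, while Pax7 was at 31.4 and 65.9 in FAPs, 11.8, 10.8 and 5.34 in injured FAPs and 0 in each ASC library, so that it passed the minimum only through FAPs. Adipocyte markers (7 genes) summed to 813 and 204 in FAPs, 195, 259 and 174 in injured FAPs and 898, 889 and 702 in ASCs, mostly Fabp4, with Plin1 lower in injured FAPs (log2 fold change −1.75). Their sum was 42815 in the CD31+CD45+ library, where Fabp4 was the most abundant too, so it does not measure adipocytes alone.

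Of 11 tested monocyte and macrophage markers 9 were called higher in injured FAPs than in FAPs and 0 lower by limma, and 8 of the 9 were listed at 0 in FAPs. For these and the counts below, the shares over all genes tested were again 24.9% higher and 27.7% lower. Adgre1, Ctss, C1qa, C1qb and Fcgr1 passed the minimum of 10 only through injured FAPs and so had to differ. Among the 8, Lyz2 was at 142, 725 and 109 normalized reads in injured FAPs, Cd14 at 145, 518 and 140.3 and Ctss at 63.6, 312 and 51.1. Csf3r, the only tested neutrophil marker, was listed at 0 in FAPs and was at 8.63, 70.5 and 10.7 in injured FAPs, through which alone it passed the minimum, so it had to differ. Of 11 tested endothelial markers 2 were higher (Emcn and Cldn5) and 6 lower, with Tie1 at −3.34. Emcn and Cldn5 were listed at 0 in FAPs and passed the minimum only through injured FAPs, so they had to differ. Of 8 tested markers of the sorted cells themselves, 2 were higher in injured than in uninjured FAPs (Pdpn 2.77, Ly6a 0.81), 3 were lower (Col1a1 −1.59, Cd34 −1.48, Dcn −1.36) and 3 were not called.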
